A study of Homo sapiens with 9 samples.

Results

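The genes described are the 39 protein-coding members of the human HOX clusters HOXA, HOXB, HOXC and HOXD. They are the rows of type protein coding named HOX followed by a cluster letter and a number, and they are 39 of the 58735 genes measured. They were measured by RNA sequencing in PaTu 8988t cells, an established line grown from a liver metastasis of a human pancreatic adenocarcinoma. Each of the 9 libraries came from cells exposed to 1 of 3 extracellular matrices, with 3 libraries per matrix. The first group had a matrix with overexpressed CPXM2 carrying the mutation R213A, called R213A here. The second had a matrix with overexpressed wild-type CPXM2, called wild type, and the third had a control matrix, called control. CPXM2 is a secreted protein related to the carboxypeptidases. The groups share the cell line and the growth medium, which is DMEM with fetal bovine serum and antibiotics. The labels name neither the cells that laid down the matrices nor the time of contact, and all results come from this single line.

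HOX genes code for homeodomain transcription factors that tell cells where they lie along the body axis. In each cluster the genes stand in a row on the same strand, and those at the 3′ end, with low paralog numbers, are used further toward the head than those at the 5′ end, with high numbers. Genes with the same number in different clusters are paralogs, copies of a single ancestral gene. Adult cells and tumour lines often keep a fixed set of HOX genes on or off, a state held by Polycomb and trithorax chromatin complexes.

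The values were deposited by the authors as FPKM, read numbers scaled to gene length and library size, in 2 tables. The 4-library table holds R213A 1, R213A 3, wild type 1 and control 1. The 5-library table holds R213A 2, wild type 2, wild type 3, control 2 and control 3. The recovered reads per library numbered between 15951927 and 18312806, and those on HOX genes between 1931 and 3350. At these depths 3 reads, the limit that a count of 0 allows for counting error only, correspond to between 0.0208 and 0.172 FPKM, depending on the gene and the library. What separates the tables is not given in the sources used here. Reads of ribosomal protein genes, which are short, differed between libraries: they made up 13.7, 5.60 and 10.6% of all reads in R213A 1, 2 and 3, 11.5, 5.55 and 6.0% in wild type 1, 2 and 3, and 7.01, 5.99 and 5.44% in control 1, 2 and 3. Every 4-library share was above every 5-library share. Within the 4-library table control 1 stood well below R213A 1, R213A 3 and wild type 1, so there the share also went with the matrix. Mitochondrial reads stayed between 1.81 and 2.38%. Of 10 duct and epithelium markers, KRT18 and KRT8, keratins of simple epithelia, averaged 348 and 153 FPKM and EPCAM 4.57 FPKM, while KRT19 averaged 0.0217 FPKM and CDH1, the epithelial cadherin, 0.0736 FPKM. None of the acinar, islet, fibroblast, endothelial, immune and fat markers reached a mean of 1 FPKM; the highest was the fibroblast marker ACTA2 at 0.741 FPKM.

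PaTu 8988t cells used the HOX clusters unequally, and most of their HOX RNA came from HOXB. A gene was called on at 1 FPKM or more in every library, off under 0.1 FPKM in every library, and low or variable otherwise. By this measure 8 of 39 genes were on, 14 were low or variable and 17 were off. The 8 on were HOXA3, HOXB2, HOXB3, HOXB5, HOXB6, HOXB7, HOXB9 and HOXC9. They all lay among paralogs 1 to 9, where 8 of 27 genes were on and 9 were off. Of the 12 genes of paralogs 10 to 13, 0 were on and 8 were off. This count asks for both tables: HOXC13 had 1.24 to 2.18 FPKM in the 4-library table and 0.0251 to 0.369 FPKM in the 5-library table. A read was seen in all 9 libraries for 18 genes, and 8 genes had 0 reads in every library.

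HOXB, on chromosome 17 (chr17:48528526-48729178, hg38), had 6 of its 10 genes on. Its summed FPKM was 58.9, 57.4 and 57.7 in R213A 1, 2 and 3, 70.9, 58.1 and 62.5 in wild type 1, 2 and 3, and 41.4, 47.5 and 64.3 in control 1, 2 and 3. The sum was between 80.8 and 87.5% of all HOX FPKM of a library, and the R213A values lay within the range of the controls. HOXC (chr12:53938765-54056030) had 1 of 9 genes on, and its sum ran from 3.34 to 8.41 FPKM. HOXA (chr7:27092993-27200106) had 1 of 11 genes on, with a sum of 2.62 to 5.18 FPKM. HOXC stood above HOXA in all 4 libraries of the 4-library table and in 3 of 5 of the other. In the 5-library table the means were 4.51 FPKM for HOXC and 4.67 FPKM for HOXA, but 4.80 and 4.55 FPKM without control 2. HOXD (chr2:176092891-176190907) had none of its 9 genes on: 16 reads fell on it in all 9 libraries together, and 6 of its genes had no read at all.

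**Figure D1:**
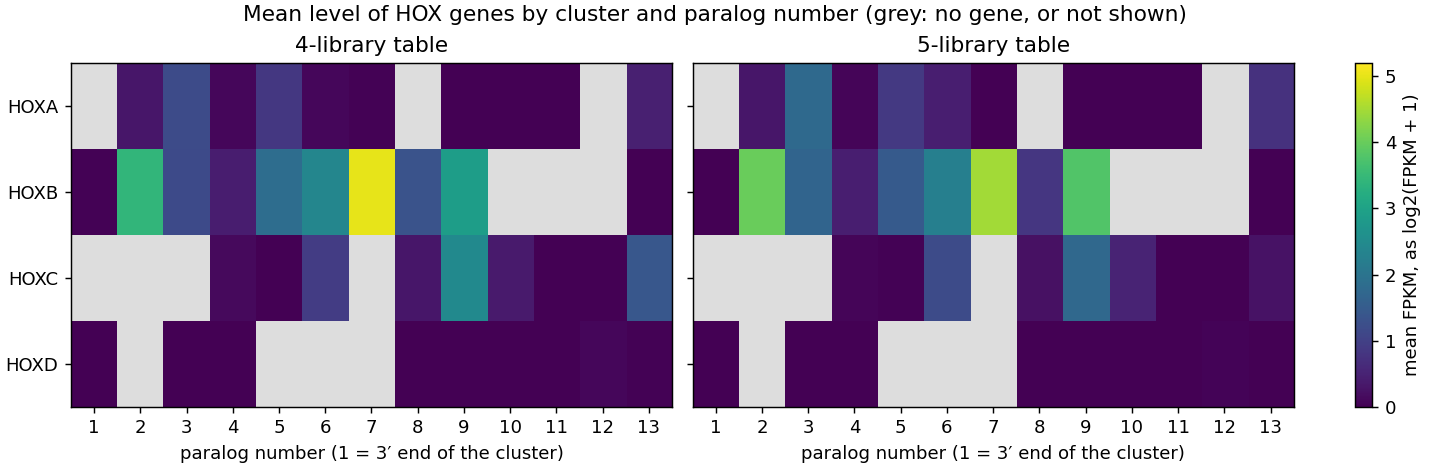
Mean level of HOX genes as log2(FPKM + 1) (colour), by cluster (rows) and paralog number (columns), in the 4-library table (left) and the 5-library table (right); grey fields hold no gene or are not shown. The brightest fields are HOXB2, HOXB7 and HOXB9 in both tables, and the HOXD row stays at or near 0.

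HOXB7 was the highest HOX gene in 8 of 9 libraries; in control 2 HOXB2 was higher. It codes for a homeodomain protein studied in many carcinomas, and the gene lies on the minus strand at chr17:48607227-48633572 (ENSG00000260027). HOXB7 had 34.4, 21.3 and 30.7 FPKM in R213A 1, 2 and 3, 36.6, 22.4 and 24.9 FPKM in wild type 1, 2 and 3, and 22.5, 13.8 and 23.8 FPKM in control 1, 2 and 3. The lowest value was that of control 2, and both CPXM2 groups overlapped the control range. HOXB7 alone made up between 24.6 and 49.2% of the summed HOX FPKM of a library.

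HOXB2, a gene of the hindbrain program in the embryo, came next by mean level. It had 9.28, 13 and 10.4 FPKM in R213A 1, 2 and 3, 12.3, 13.3 and 16.0 FPKM in wild type 1, 2 and 3, and 7.12, 16.7 and 16.1 FPKM in control 1, 2 and 3. All 4 values of the 4-library table lay below all 5 of the other table, so the matrices overlapped widely. HOXB9, a paralog group 9 gene of the trunk, had 4.23, 13.6 and 7.16 FPKM in R213A 1, 2 and 3, 11, 13.7 and 13.1 FPKM in wild type 1, 2 and 3, and 3.41, 9.60 and 14.1 FPKM in control 1, 2 and 3. Control 1 and R213A 1 were lowest, while wild type 1, from the same table, stood with the 5-library values.

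HOXB6, a trunk gene, lay between these peaks. It had 4.84, 3.93 and 3.86 FPKM in R213A 1, 2 and 3, 4.21, 3.67 and 3.97 FPKM in wild type 1, 2 and 3, and 4.08, 2.85 and 4.33 FPKM in control 1, 2 and 3. R213A 1 was highest, control 2 was lowest and the matrices overlapped. HOXB5 had 3.29, 2.16 and 2.56 FPKM in R213A 1, 2 and 3, 2.38, 1.78 and 1.61 FPKM in wild type 1, 2 and 3, and 2.25, 1.25 and 2.16 FPKM in control 1, 2 and 3. Every 4-library value of HOXB5 was above every 5-library value.

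HOXB3 was on at a low level. It had 1.09, 2.48 and 1.16 FPKM in R213A 1, 2 and 3, 1.49, 2.39 and 1.96 FPKM in wild type 1, 2 and 3, and 1.19, 1.92 and 2.34 FPKM in control 1, 2 and 3. Here the 4-library values were all below the 5-library ones. The gene span of HOXB3 overlaps those of HOXB4, HOXB5 and HOXB6, and that of HOXB7 covers HOXB8 and HOXB9, all on the minus strand. The sources used here do not say how the authors assigned reads of shared stretches, and levels of neighbours may be split between them; 22 of the 39 genes overlap another HOX gene in this way.

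HOXB4, HOXB8 and the end genes HOXB1 and HOXB13 were the lower points of the cluster. HOXB4, known for its action in blood stem cells, stayed between 0.213 and 0.606 FPKM. HOXB1 and HOXB13, at the ends of the cluster, reached at most 0.0659 and 0.0527 FPKM. HOXB8 had 1.55, 0.697 and 1.51 FPKM in R213A 1, 2 and 3, 2.37, 0.650 and 0.723 FPKM in wild type 1, 2 and 3, and 0.624, 0.861 and 0.953 FPKM in control 1, 2 and 3. Wild type 1 was highest and the matrices overlapped. Its level was between 2.77 and 6.48% of that of HOXB7 and between 4.75 and 36.6% of that of HOXB9, the genes on either side of it.

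**Figure D2:**
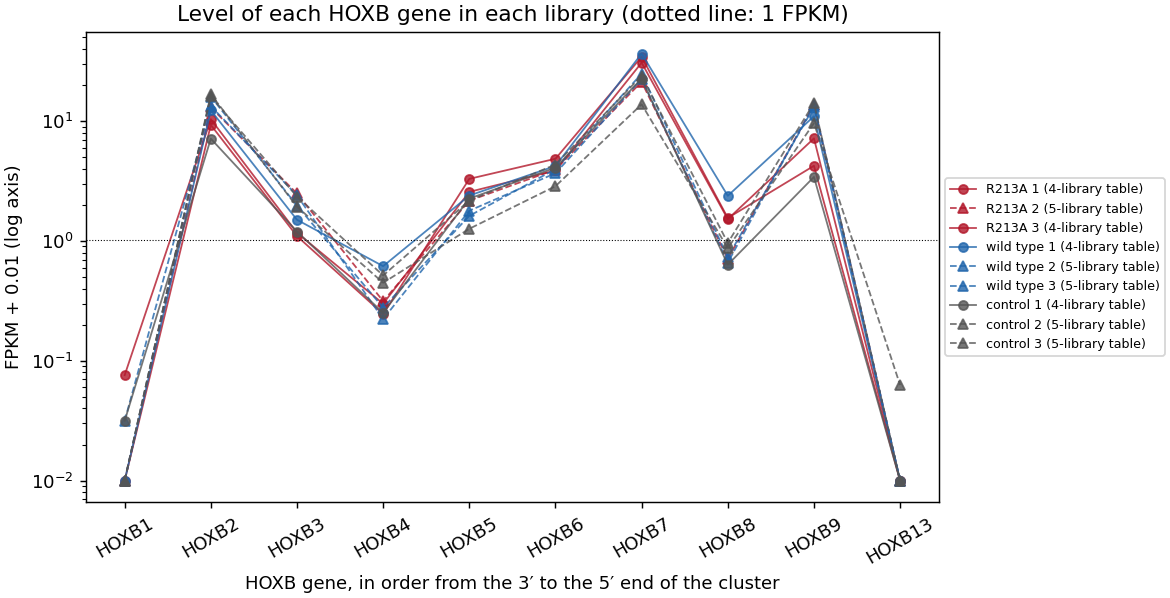
FPKM + 0.01 (log axis) of the 10 HOXB genes in their order along the cluster, 1 line per library; colours mark the matrix and line styles the table. All 9 libraries show peaks at HOXB2, HOXB7 and HOXB9 and low points at HOXB4 and HOXB8, with HOXB1 and HOXB13 at or near 0.

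HOXB8 is also a textbook target of a microRNA made in the HOX clusters, miR-196, which was found to cut HOXB8 RNA in the mouse embryo. A microRNA guides a silencing complex to messenger RNAs that pair with it, above all through its seed, bases 2 to 8. The sequences were looked at after the low level of HOXB8 had been seen. Mature miR-196a is made from MIR196A1 in HOXB (chr17:48632532-48632553, minus strand) and MIR196A2 in HOXC (chr12:53991762-53991783, plus strand), and miR-196b from MIR196B in HOXA (chr7:27169528-27169549, minus strand). They are printed 5′ to 3′ from RefSeq (GRCh38.p14) with the seed in capitals, and differ outside it. Below them stand the HOXB8 site and, for contrast, a site of HOXA7 and one of HOXB7, as DNA from the GENCODE 29 transcripts (GRCh38). Each lies in a 3′ untranslated region, with bases that form A:U or G:C pairs with miR-196a in capitals.
hsa-miR-196a-5p: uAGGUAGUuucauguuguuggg
hsa-miR-196b-5p: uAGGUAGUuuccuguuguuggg
HOXB8 site: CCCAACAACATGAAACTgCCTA
HOXA7 site: CCtActccCcTaAAACTACCTA
HOXB7 site: aaCActgAaAaaAtACTACCTA
The HOXB8 site (chr17:48612770-48612791, minus strand) pairs with miR-196a at 21 of 22 positions when only A:U and G:C pairs are counted. The exception is a G opposite the U at position 5, within the seed, a weaker kind of pair that was not counted here. Among 19684 genes with a protein-coding transcript, searched over the longest one, HOXB8 was the 1 gene with a site pairing at 19 or more of 22 positions. The HOXA7 site (chr7:27154430-27154451, minus strand) pairs at 15 positions and the HOXB7 site (chr17:48607614-48607635, minus strand) at 13, both with a full seed. A full seed match, ACTACCT, was found in the 3′ untranslated region of 8 of the 39 HOX genes, on the transcript strand only; anywhere in the transcript it was found in 17.1% of all genes searched, so a seed match alone is common. A match is a description of sequence, not a measured site of action. The mature microRNA was not measured here. The row for MIR196A1, 70 bases long and inside the HOXB7 span on the same strand, had 56 reads in all, with 7, 3 and 5 in R213A 1, 2 and 3, 10, 5 and 2 in wild type 1, 2 and 3, and 15, 4 and 5 in control 1, 2 and 3. Reads of the precursor and of HOXB7 RNA cannot be told apart there, and a link between the microRNA and the level of HOXB8 was not tested.

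In HOXC the leading gene was HOXC9 (chr12:53994895-54003337, plus strand), a trunk gene of the same paralog group as HOXB9. HOXC9 had 5.0, 2.18 and 4.37 FPKM in R213A 1, 2 and 3, 5.73, 2.54 and 2.68 FPKM in wild type 1, 2 and 3, and 3.05, 1.92 and 2.49 FPKM in control 1, 2 and 3. Every 4-library value was above every 5-library value, the opposite of HOXB2. HOXC6 had 0.854, 1.65 and 1.12 FPKM in R213A 1, 2 and 3, 0.789, 1.11 and 1.26 FPKM in wild type 1, 2 and 3, and 0.829, 1.03 and 1.36 FPKM in control 1, 2 and 3. It crossed the level of 1 FPKM without a pattern by matrix, but the tables differed. The 4-library values ran from 0.789 to 1.12 FPKM, and the 5-library values, all above 1 FPKM, from 1.03 to 1.65 FPKM.

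HOXC13, at the 5′ end of HOXC and known for its work in hair and nail, differed most between the tables among the 18 genes read in every library. HOXC13 had 1.79, 0.236 and 1.37 FPKM in R213A 1, 2 and 3, 1.24, 0.176 and 0.175 FPKM in wild type 1, 2 and 3, and 2.18, 0.0251 and 0.369 FPKM in control 1, 2 and 3. The averages were 1.65 FPKM over 4 libraries and 0.196 FPKM over the other 5, with no overlap. Read counts were 59, 10 and 61 in R213A 1, 2 and 3, 58, 8 and 8 in wild type 1, 2 and 3, and 99, 1 and 16 in control 1, 2 and 3. The table, not the matrix, separated the libraries, and control 1 was highest in its table, while control 2 and control 3 were lowest and highest in theirs. Its mean of 0.840 FPKM was below 1 FPKM, so it entered no test. Of the other HOXC genes, HOXC8 reached at most 0.390 FPKM, HOXC10 at most 0.613 FPKM and HOXC4 at most 0.133 FPKM. HOXC5 and HOXC11 had 4 and 1 reads in all, and HOXC12 had none.

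**Figure D3:**
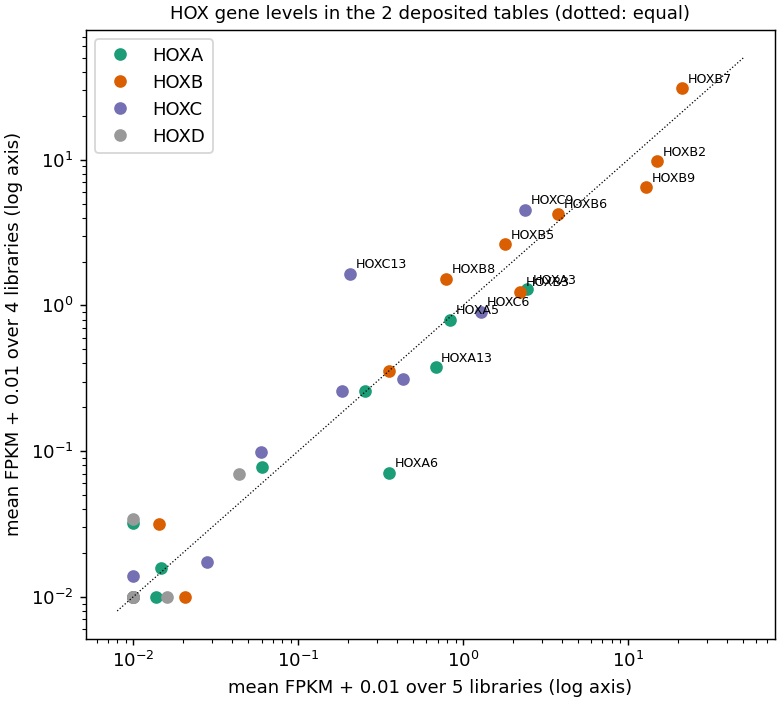
Mean FPKM + 0.01 of HOX genes in the 4-library table (vertical) against the 5-library table (horizontal), on log axes, coloured by cluster. HOXC13 lies farthest above the line of equal levels and HOXA6 farthest below it among the named genes; HOXB7 is highest in both tables.

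HOXA3 was the 1 HOXA gene on; it patterns the pharyngeal arches in the embryo. HOXA3 (chr7:27106184-27152581, minus strand) had 1.04, 2.35 and 1.48 FPKM in R213A 1, 2 and 3, 1.30, 2.6 and 2.25 FPKM in wild type 1, 2 and 3, and 1.33, 2.67 and 2.35 FPKM in control 1, 2 and 3. Within each table the libraries of different matrices stood close together, and the 4-library values were all lower. HOXA5, a gene of lung and other gut-derived organs, had 0.691, 0.436 and 0.924 FPKM in R213A 1, 2 and 3, 0.515, 0.875 and 0.931 FPKM in wild type 1, 2 and 3, and 1.03, 0.999 and 0.883 FPKM in control 1, 2 and 3. The matrices overlapped.

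HOXA13, a gene of the hindgut and the limb tips, was the highest of the paralog 10 to 13 genes in HOXA and reached at most 0.866 FPKM. The 4-library values ran from 0.232 to 0.524 FPKM and the 5-library values from 0.521 to 0.866 FPKM. For HOXA6 these ranges were 0 to 0.125 FPKM and 0.190 to 0.498 FPKM, with 46 reads in all. HOXA2 reached at most 0.446 FPKM and HOXA4 0.211 FPKM. HOXA7, HOXA9 and HOXA11 had 4, 1 and 2 reads in all, and HOXA10 had none. HOXA9 and HOXA10, well known from leukaemia, were therefore not detectable beyond single reads at this depth. In HOXD, HOXD12 had 10 reads, HOXD13 had 4 and HOXD3 had 2, while HOXD1, HOXD4, HOXD8, HOXD9, HOXD10 and HOXD11 had none.

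Paralogs thus differed widely within a number: HOXB7 averaged 25.6 FPKM and HOXA7 0.00990 FPKM, HOXB2 12.7 and HOXA2 0.247 FPKM, HOXB6 3.97 and HOXA6 0.219 FPKM, and HOXB9 9.99 FPKM beside 0 reads for HOXD9. The start regions of the low partners HOXA7, HOXA6 and HOXA2 are shown because CpG pairs, the sites of DNA methylation, mark the starts of many Polycomb targets. They are from RefSeq (GRCh38.p14), 5′ to 3′ on the minus strand, with every CpG in capitals; they lie at chr7:27156626-27156925, chr7:27147725-27148024 and chr7:27102634-27102933.
HOXA7: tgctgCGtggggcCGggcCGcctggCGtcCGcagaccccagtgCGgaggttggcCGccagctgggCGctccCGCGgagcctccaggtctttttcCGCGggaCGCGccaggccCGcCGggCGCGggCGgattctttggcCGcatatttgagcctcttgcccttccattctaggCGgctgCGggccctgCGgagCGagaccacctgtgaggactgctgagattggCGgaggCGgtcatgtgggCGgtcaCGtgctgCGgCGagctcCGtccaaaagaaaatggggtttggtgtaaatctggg
HOXA6: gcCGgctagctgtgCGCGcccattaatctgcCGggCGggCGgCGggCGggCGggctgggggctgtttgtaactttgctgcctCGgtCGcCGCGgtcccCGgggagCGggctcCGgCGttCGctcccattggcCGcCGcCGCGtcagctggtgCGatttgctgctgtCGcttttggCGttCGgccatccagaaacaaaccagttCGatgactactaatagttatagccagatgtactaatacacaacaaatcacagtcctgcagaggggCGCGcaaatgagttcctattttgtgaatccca
HOXA2: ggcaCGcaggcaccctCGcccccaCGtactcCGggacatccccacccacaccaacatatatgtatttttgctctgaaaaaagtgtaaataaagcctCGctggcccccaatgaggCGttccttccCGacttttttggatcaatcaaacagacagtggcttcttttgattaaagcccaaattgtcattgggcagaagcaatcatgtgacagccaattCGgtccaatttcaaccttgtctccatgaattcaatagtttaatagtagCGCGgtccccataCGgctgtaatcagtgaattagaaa
The windows of 300 bases hold 31 CpG in HOXA7, 29 in HOXA6 and 11 in HOXA2, beside a median of 14 over all 35116 windows. HOXA7 has more CpG than 79.3% of all windows, HOXA6 than 75.8% and HOXA2 than 45.3%. The table matched 20 of the 39 genes. The 13 off genes matched had a median of 23.5 CpG over 14 windows, from 4 to 36. The 6 low or variable genes matched, HOXA6 and HOXA2 among them, had a median of 23 over 6 windows, from 11 to 44. HOXA3, the 1 on gene matched, had a median of 15 over 7 windows, from 0 to 29. HOXC5, off, and HOXC4, low or variable, share a window. HOXB2, HOXB6, HOXB7, HOXB9 and HOXD9 are named only. Neither methylation nor chromatin was measured, and a link of CpG content to the levels was not tested.

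Between matrices, 10 HOX genes could be tested: the 8 on, HOXB8 and HOXC6, whose means reached 1 FPKM. The other 29 did not pass this filter on low values. Differences are on the log2(FPKM + 1) scale, which understates the change of low genes, and come from a limma fit over 11193 genes with matrix and table as terms. Whether libraries of 1 matrix stem from separate cultures is not in the labels. The p-values therefore cover the spread among these libraries, possibly technical. The chi-square per gene measured how far a pair of libraries lay apart. It was 2.85 to 6.22 among R213A 2, wild type 2, wild type 3 and control 3, which span all matrices. Control 2, of the same table, stood at 79.1 to 87.7 from them. R213A 1 and R213A 3, of 1 matrix and 1 table, stood at 85.4. The cause of this closeness across matrices was not tested. In RNA from whole cultures, fewer cells of a kind and less RNA per cell cannot be told apart.

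On the R213A matrix against the control matrix, none of the 10 HOX genes passed the test, and 0 of 11193 genes did, a background of 0%. At an unadjusted p under 0.05 the counts were 0 of 10 HOX genes and 341 of 11193 genes, 3.05%. HOXB7 averaged 28.8 ± 6.77 FPKM in R213A and 20.0 ± 5.45 FPKM in control (SD, n = 3 each). Its difference was 0.35 ± 0.23 (SE) with an adjusted p of 0.690 in limma. Within tables it was 0.51 over 4 libraries and 0.22 over 5, or -0.16 without control 2. HOXB9 averaged 8.33 ± 4.79 FPKM in R213A and 9.04 ± 5.37 FPKM in control (SD, n = 3 each), with a fitted difference of 0.27 ± 0.30 (SE), and HOXB5 had one of 0.25 ± 0.18 (SE). The fit forms differences within tables, so its sign can differ from that of the averages, as for HOXB9. These intervals all included 0. The median difference was 0.17 over the 10 HOX genes and -0.02 over all genes tested.

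On the wild type matrix against the control matrix, again 0 of 10 HOX genes and 0 of 11193 genes passed, 0%, with 0 of 10 and 503 of 11193, 4.49%, at an unadjusted p under 0.05. HOXB7, HOXB9 and HOXC9 came nearest. HOXB7 averaged 27.9 ± 7.57 FPKM in wild type and 20.0 ± 5.45 FPKM in control (SD, n = 3 each). Its fitted difference was 0.47 ± 0.22 (SE), with a 95% interval from -0.02 to 0.96 and an adjusted p of 0.757 in limma. HOXB9 averaged 12.6 ± 1.44 FPKM in wild type and 9.04 ± 5.37 FPKM in control (SD, n = 3 each), a fitted difference of 0.60 ± 0.29 (SE) with an adjusted p of 0.757 in limma. HOXC9 averaged 3.65 ± 1.80 FPKM in wild type and 2.49 ± 0.563 FPKM in control (SD, n = 3 each), a fitted difference of 0.36 ± 0.18 (SE). The median difference was 0.10 over the 10 HOX genes and -0.03 over all genes tested.

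The tables did not give these differences the same size. In the 4-library table wild type 1 exceeded control 1 by 0.68 for HOXB7, 1.44 for HOXB9, 0.73 for HOXC9, 1.05 for HOXB8 and 0.71 for HOXB2. In the 5-library table the differences were 0.36, 0.19, 0.18, -0.18 and -0.16 for the same genes, and without control 2 they were -0.01, -0.07, 0.05, -0.21 and -0.13. HOXB8 and HOXB2 thus stood higher in wild type in 1 table and lower in the other. Wild type 1 exceeded control 1 by at least 1 on the log2(FPKM + 1) scale for 2 of the 10, HOXB8 and HOXB9, beside 7.79% of all genes tested. The filter on low values used the mean over all libraries, and the mean of HOXB8 was only just above it. Wild type 1, at 2.37 FPKM, was the highest library of HOXB8, so the filter itself favoured HOXB8 in this count.

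Of the 10 HOX genes, 6 were higher in wild type than in control in both tables, beside 22.5% of all genes, and 5 were higher in R213A than in control, beside 21.6%. Without control 2, the count was 1 of 10 for wild type, beside 26.3%, and 1 of 10 for R213A, beside 23.5%. These comparisons share the control libraries. Control 2 lay below the other 4 libraries of its table for 7 of the 10 genes, beside 37.1% of all genes, and above them for 2, beside 43.7%. For HOXB7, control 2 had 13.8 FPKM and the other 4 libraries of the table had 21.3 to 24.9 FPKM. Short genes also stood higher in the 4-library R213A and wild type libraries than in control 1: among genes of a length like that of HOXB7 the median difference was 0.53 in R213A and 0.38 in wild type. With length taken out of each library, a setting chosen after the data were seen, the 4-library difference of HOXB7 was 0.10 in R213A and 0.38 in wild type, and that of HOXB9 was 0.29 in R213A and 1.26 in wild type. The part of RNA quality or of length in these differences was not tested further.

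**Figure D4:**
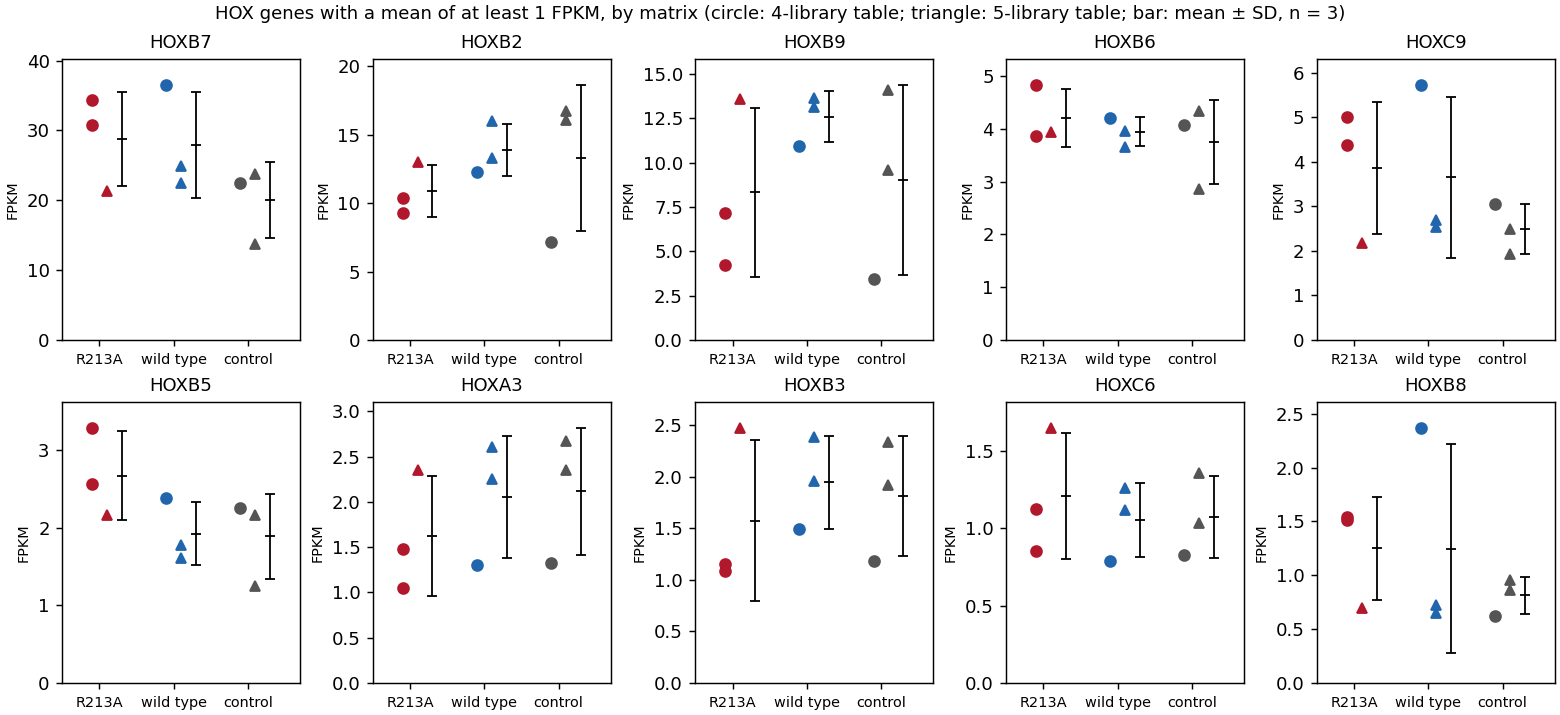
FPKM of the 10 HOX genes tested, by matrix; circles are libraries of the 4-library table, triangles those of the 5-library table, and bars the mean ± SD (n = 3). For HOXA3, HOXB2, HOXB3, HOXB5 and HOXC9 the circles and triangles do not overlap, while the matrices do.

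**Figure D5:**
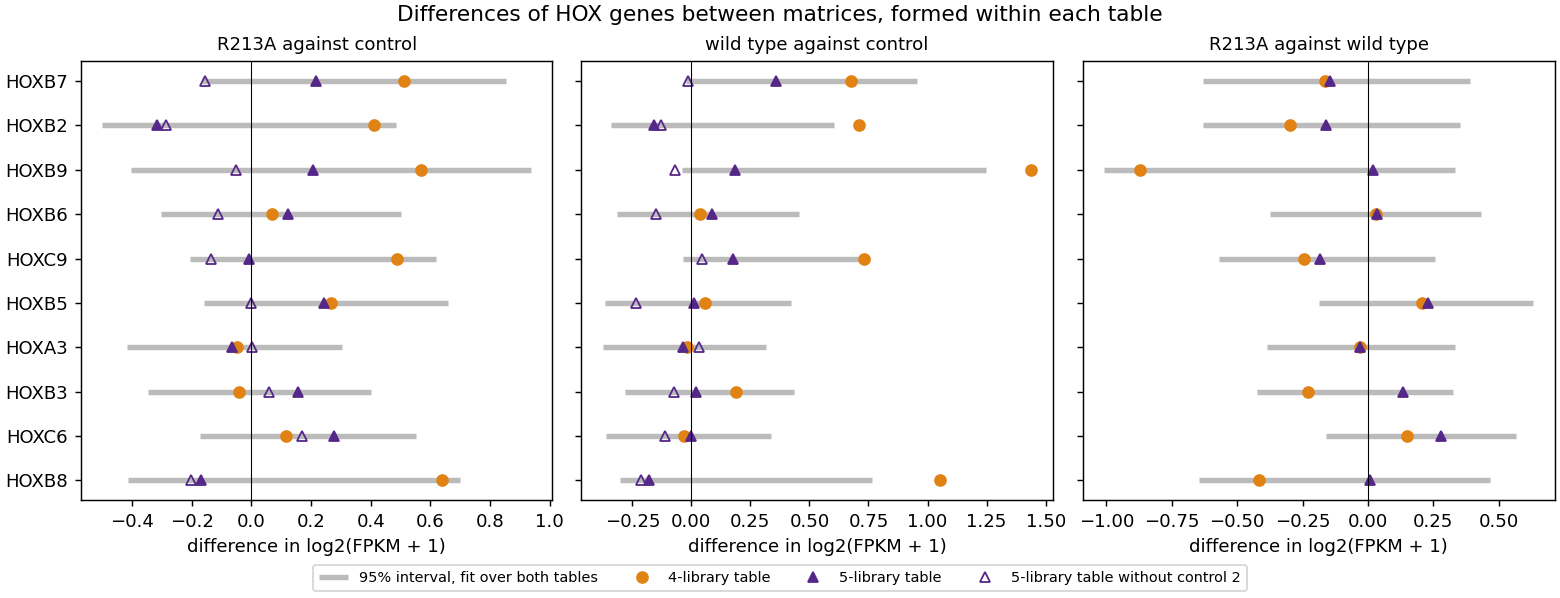
Differences in log2(FPKM + 1) between matrices for the same 10 genes, for the 4-library table (circles), the 5-library table (filled triangles) and again once control 2 is left out (open triangles), with the 95% interval of the fit over both tables (grey). All intervals include 0, and for HOXB7 the open triangles lie at -0.16 for R213A and -0.01 for wild type against control.

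On the R213A matrix against the wild type matrix, 0 of 10 HOX genes and 0 of 11193 genes, 0%, passed, with 0 of 10 and 117 of 11193, 1.05%, at an unadjusted p under 0.05. HOXB7 differed by -0.12 ± 0.23 (SE), with -0.17 over the 4 libraries and -0.14 over the 5. HOXB9 differed by -0.34 ± 0.30 (SE), by -0.87 and 0.02 in the tables, and HOXC6 by 0.20 ± 0.16 (SE), all with an adjusted p of 0.996 in limma. The median difference was -0.07 over the 10 genes and 0.01 over all genes tested. The median 95% interval of the 10 genes reached 0.41, 0.39 and 0.41 to either side for R213A against control, wild type against control and R213A against wild type, so changes smaller than this lie within the error of the fit at this number of libraries.

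The spread between libraries differed by gene and by table. In the 4-library table the SD of log2(FPKM + 1) was 0.11 for HOXB6, 0.12 for HOXA3, 0.11 for HOXB3 and 0.11 for HOXC6, lower than for 90.4% or more of the genes of like mean. In the 5-library table their SDs were 0.18, 0.08, 0.12 and 0.15, above those of 59.8, 11.2, 29.7 and 40.2% of the like genes, so HOXA3 alone of the 4 stayed low in this order. HOXB9, with 0.65, exceeded 89.2% of the genes of like mean, and HOXB8, with 0.43, exceeded 78.6%. In the 5-library table HOXB7 had an SD of 0.32, more than 92.3% of like genes, and 0.09 without control 2, still more than 83.0%. HOXB9 had 0.21, more than 72.9%, and 0.04 without control 2, more than 19.8%. Of the 10 genes, 2 had every 4-library value above every 5-library value, beside 23.7% of all genes, and 3 had them all below, beside 30.3%.

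Most of the other transcripts measured in the clusters lay in HOXB. Of 62 other rows inside the cluster spans, 23 had a read and 5 reached a mean of 1 FPKM, 4 of them in HOXB. AC103702.2, a long noncoding RNA that overlaps no HOX gene, had 15.1, 5.66 and 9.54 FPKM in R213A 1, 2 and 3, 11.3, 5.38 and 5.14 FPKM in wild type 1, 2 and 3, and 6.25, 3.43 and 5.11 FPKM in control 1, 2 and 3. Its difference for R213A against control was 0.57 ± 0.23 (SE), with an unadjusted p of 0.0315 and an adjusted p of 0.690 in limma. R213A 1 and wild type 1 were highest, control 2 was lowest, and R213A 2 lay between control 3 and control 1. The difference was 0.84 over the 4 libraries and 0.36 over the 5. The row is 1596 bases long, and among genes of a length like that of HOXB7, 1528 bases, the 4-library median was 0.53. For MIR196A1 the R213A against control difference was -0.72 ± 0.29 (SE), with an unadjusted p of 0.0336 and an adjusted p of 0.690 in limma, on at most 15 reads per library. HOXB-AS1 averaged 2.88 FPKM, HOXB-AS4 2.35 FPKM and HOXC-AS1 1.13 FPKM. These run antisense to HOXB2 and HOXB3, to HOXB7 and to HOXC6 and HOXC9, and with no strand setting stated for the counting, their reads and those of the partner genes may be mixed. HOTAIR, the antisense RNA of HOXC known for binding Polycomb, had 0 reads, and HOTTIP of HOXA averaged 0.0278 FPKM. None of the 3 antisense RNAs measured, out of 22 noncoding and neighbouring genes listed, passed the test in any comparison.

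HOX proteins bind DNA together with TALE homeodomain cofactors of the PBX, MEIS and PKNOX families. The list of 11 TALE genes also holds TGIF1 and TGIF2, related repressors outside these families, and 6 of the 11 were measured at a mean of 1 FPKM or more. PBX2 averaged 20.3 FPKM, TGIF2 10.9 FPKM and PBX3 9.11 FPKM, whereas MEIS2 averaged 1.13 FPKM and MEIS1 0.171 FPKM. None of the 6 passed the test in any comparison. PBX3 had the smallest p for wild type against control, with a difference of -0.70 ± 0.29 (SE), an unadjusted p of 0.0392 and an adjusted p of 0.757 in limma; it was -0.78 over the 4 libraries and -0.66 over the 5, and -0.04 over the 5 without control 2.

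The complexes that hold HOX genes off or on were all present as RNA. All 12 genes of Polycomb complex 2, which sets the silencing mark H3K27me3, were measured, led by RBBP7 at 35.6 FPKM, PHF1 at 29.3 FPKM and PHF19 at 18.2 FPKM, with the catalytic subunit EZH2 at 6.94 FPKM. All 19 genes of Polycomb complex 1, which adds ubiquitin to histone H2A, were measured, led by RING1 at 30.5 FPKM, PHC2 at 25.5 FPKM and PCGF2 at 22.0 FPKM. All 18 trithorax, MLL and H3K27 demethylase genes were measured, led by CXXC1 at 43.5 FPKM, WDR5 at 39.1 FPKM and PSIP1 at 24.6 FPKM, while KMT2A, the founding MLL methylase, averaged 2.48 FPKM. None of these 49 genes, in either direction, passed the test in any of the 3 comparisons. For wild type against control the median difference was -0.30 over Polycomb complex 2, -0.13 over Polycomb complex 1 and -0.29 over the trithorax list, beside -0.03 over all genes. Over the 4 libraries these medians were -0.88, -0.30 and -0.54, and over the 5 they were -0.07, -0.11 and -0.15. For R213A against control the medians were -0.03, -0.12 and -0.17 in the same order, beside -0.02 over all genes. The nearest to the threshold were MTF2 at -0.64 and RBBP5 at -0.37 for wild type against control, both with an adjusted p of 0.757 in limma, and AFF4 at -0.58 for R213A against control, adjusted p 0.690 in limma; without control 2 the 5-library difference was -0.01 for MTF2, -0.24 for RBBP5 and 0.07 for AFF4.

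Upstream inputs were partly present. Retinoic acid turns on 3′ HOX genes through RAR and RXR receptors, and CDX factors act on central ones; of 18 such genes 6 were measured. RXRB averaged 13.7 FPKM, RARG 8.06 FPKM, RXRA 6.72 FPKM and RARA 4.08 FPKM, and CDX2 2.12 FPKM, while RARB averaged 0.0560 FPKM and CDX1, CDX4 and RXRG were at 0 in all libraries. CYP26B1, which degrades retinoic acid, averaged 1.87 FPKM. All 9 genes of cluster architecture, which fold the clusters into loops, were measured, with the cohesin genes RAD21 at 56.7 FPKM, SMC1A at 22.6 FPKM and SMC3 at 20.3 FPKM, and the boundary factor CTCF at 7.16 FPKM. STAG2, another cohesin gene, had the smallest unadjusted p of this list for both matrices, with a difference of -0.43 for R213A against control and -0.49 for wild type against control; these were -0.92 and -1.21 over the 4 libraries and -0.08 and -0.14 over the 5. The median difference over the 9 genes was -0.40 for R213A and -0.35 for wild type against control; it was -0.92 and -1.05 over the 4 libraries and -0.02 and -0.06 over the 5. Over all genes tested the medians were -0.02 and -0.03, with -0.04 and -0.07 over the 4 libraries. These 4-library medians moved with gene length. Among genes of a length like that of HOXB3, 7456 bases, they were -0.25 for R213A and -0.23 for wild type. At the length of HOXB7, 1528 bases, they were 0.53 and 0.38. The part of length in the medians of the architecture, Polycomb and trithorax lists was not tested. None of the 6 input genes or the 9 architecture genes passed the test in any comparison.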

How the data were processed

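The values analysed are FPKM per gene, which the authors computed and deposited in 2 tables of 4 and 5 libraries. RNA was extracted with TRIzol and made into libraries with a stranded Illumina TruSeq mRNA kit, per the labels' protocols. The submitters' processing notes name hg38 and bcl2fastq; no aligner, counter or strand setting is stated there. Whole reads came out of FPKM times gene length for 100% of values (tolerance 0.01 reads). No column of another series was present. The HOX genes and the gene lists were chosen with earlier results of these data known. HOX genes are given by their values in every library where they reached 1 FPKM in any, and otherwise by their highest value or read total; some genes are counted in the totals but not reported here by name. From each list the highest genes and those of smallest p are named.

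Levels were tested as log2(FPKM + 1) with limma 3.58.1 in R 4.3.3 on the 11193 genes whose mean reached 1 FPKM, in 1 fit of all 9 libraries with matrix and table as terms, a mean-variance trend and 5 residual degrees of freedom. Adjustment followed Benjamini and Hochberg over all genes, with a threshold of 0.05. The fit was tested on simulated data: for R213A against control it recovered 43 of 100 genes changed by 1 and 93 of 100 changed by 2 on the log2 scale among 11193 genes. It also made 9 false calls. The simulated noise was independent between genes, whereas in the data gene length went with 0.456 to 15.5% of the variance by library. The recovery therefore checks the code and does not measure the power in these data. Alternatives were other pseudocounts, filters and scalings, fits without the table term or trend, each table alone, a replicate block, limma-voom on the recovered reads, and leaving out each library. A length correction and a 5-library table without control 2 were added after the data were seen. MicroRNA, transcript and start-region sequences came from RefSeq (GRCh38.p14) and GENCODE 29; all 39 HOX gene spans equalled those of GENCODE 29. Genes of like length lie within a factor of 1.25 of a HOX gene's length, and genes of like mean within a factor of 2 of its mean FPKM.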

Additional observations from a re-analysis of the deposited data

How the results depend on the processing

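Of the 10 HOX genes tested, 0 passed the threshold in any comparison under every alternative run with limma. The count of all genes called moved without the filter on low values, to 1 for R213A against control and 1 for wild type against control, and in the 4-library table alone, to 184 for R213A against control, 775 for wild type against control and 327 for R213A against wild type. That fit has 1 residual degree of freedom, from R213A 1 and 3, and assumes that the lone libraries vary like them. With limma-voom on the recovered reads 0 genes were called in each comparison, with 214, 425 and 100 at an unadjusted p under 0.05 for R213A against control, wild type against control and R213A against wild type. At 2 FPKM in every library 4 HOX genes were on rather than 8. HOXB made up 86.3% of the summed HOX FPKM in the 5-library table alone and 85.3% over all libraries. The mean sum of HOXA exceeded that of HOXC in the 5-library table alone, but not without control 2. The signs of small differences turned in these settings, and the cause was not tested. For R213A against control they were HOXB2 0.41 and HOXB3 -0.043 in the 4-library table alone, HOXB8 -0.17 and HOXC9 -0.0067 in the 5-library table alone, HOXB3 -0.15 and HOXB9 -0.061 with no table term, HOXA3 0.017 with quantile scaling, HOXB2 0.018 with median-of-ratios scaling, HOXB3 -0.013 with limma-voom, HOXB6 -0.034 and HOXB8 -0.029 with the length correction. For wild type against control they were HOXB2 -0.16 and HOXB8 -0.18 in the 5-library table alone, HOXC6 0.00038 with median-of-ratios scaling, HOXA3 0.012 and HOXC6 0.037 with limma-voom, HOXB5 -0.080 and HOXB6 -0.0053 with the length correction. For R213A against wild type they were HOXB3 0.14, HOXB8 0.0096 and HOXB9 0.019 in the 5-library table alone, HOXB7 0.046, HOXB8 0.060 and HOXC9 0.075 with no table term, HOXA3 0.034 and HOXB3 0.012 with quantile scaling, HOXB6 -0.087 with limma-voom, HOXB6 -0.028 with the length correction. Leaving out 1 library at a time, the count of genes called stayed 0, and the number of HOX genes on stayed 8. The sign of some differences turned, over these ranges. For R213A against control they were -0.12 to 0.0050 for HOXA3, -0.36 to 0.12 for HOXB2, -0.099 to 0.069 for HOXB3, -0.013 to 0.20 for HOXB6, -0.31 to 0.26 for HOXB8, -0.092 to 0.46 for HOXB9 and -0.027 to 0.32 for HOXC9. For wild type against control they were -0.069 to 0.012 for HOXA3, -0.13 to 0.26 for HOXB2, -0.012 to 0.16 for HOXB3, -0.10 to 0.17 for HOXB5, -0.063 to 0.19 for HOXB6, -0.11 to 0.38 for HOXB8 and -0.082 to 0.035 for HOXC6. For R213A against wild type they were -0.092 to 0.034 for HOXA3, -0.25 to 0.083 for HOXB2, -0.18 to 0.069 for HOXB3, -0.029 to 0.091 for HOXB6, -0.20 to 0.28 for HOXB8 and -0.46 to 0.14 for HOXB9. For wild type against control HOXB7 stayed between 0.30 and 0.71, HOXB9 between 0.25 and 0.84 and HOXC9 between 0.19 and 0.50. In all, 579 single-gene values kept their direction and 60 did not.

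A replicate block, with the number in the labels as pairing, called 0 genes in each comparison, and HOXB7 for R213A against wild type was 0.023 with it. Correlations of deviations from group means over the 9 same-numbered pairs ran from -0.70 to 0.84, with 7 over 0.1, and 6 libraries correlated best with one of their own number. The deviations still held the difference between tables. Same-numbered pairs across tables were negative, at -0.70 for R213A 3 with wild type 3 and -0.65 with control 3. Pairs of unlike number within a table were positive, from 0.31 for wild type 3 with control 2 to 0.81 for R213A 2 with wild type 3. These correlations therefore cannot tell the number from the table. The labels do not say what a number marks, and the block changed no call. Depth limits the HOX genes that are off, since 3 reads correspond to 0.0208 to 0.172 FPKM.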

Other observations

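Of 22 ParaHox and other ANTP homeobox genes listed from outside the clusters, 5 had a mean of at least 1 FPKM and 8 were at 0 in all libraries. The CDX genes, also ParaHox genes, were counted with the upstream inputs, and the TALE homeobox genes with the cofactors. MSX1, a gene of limb and craniofacial tissue, stood far above the rest with a mean of 22.9 FPKM, between 15.4 and 43.3 FPKM, near the mean of HOXB7. DLX4 averaged 1.84 FPKM and MNX1, a pancreatic and motor neuron factor, 1.75 FPKM. PDX1, the ParaHox gene that specifies the pancreas, averaged 0.662 FPKM, between 0.290 and 1.24 FPKM. None of the 5 passed the test in limma in any comparison.

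Of 17 genes reported to respond to HOX proteins in other cells, 9 were measured at a mean of 1 FPKM or more. PLAU, the urokinase protease, averaged 314 FPKM and the ephrin receptor gene EPHA2 147 FPKM, while ITGB3 averaged 0.150 FPKM. None of the 9 passed the test in limma in any comparison. ITGAV, the integrin alpha V subunit, had the smallest unadjusted p for both matrices, with a difference of -0.44 for R213A against control and -0.44 for wild type against control. These were -0.85 and -0.93 over the 4 libraries, -0.12 and -0.20 over the 5, and -0.05 and -0.13 over the 5 without control 2. Of the 10 duct and epithelium markers 5 were tested and none passed; EPCAM differed by 0.19 for R213A against control and by 0.59 for wild type against control, with 0.24 and 1.19 over the 4 libraries and 0.36 and 0.29 over the 5.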
